A study of Homo sapiens with 16 samples.

Results

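The genes described here are the cytosolic heat shock chaperones and the factor that induces them. They are HSF1, HSPA1A, HSPA1B, HSPA8, HSPA4, HSPH1, HSP90AA1, HSP90AB1, DNAJB1 and HSPB1, chosen by symbol, and all 10 were found among the 58302 Ensembl gene identifiers of the count files. RNA-Seq was carried out on HEK293 cells, an established human embryonic kidney line, in which Gemin5, an RNA-binding protein of the SMN complex, was silenced with an siRNA (siRNAG5), and on control cells (Ctrl). RNA came from cytoplasmic lysates (Input) and from the polysomal fractions of sucrose gradients (Polysome), with 4 independent samples of each condition, so that the 16 libraries form 4 groups of 4. The siRNAG5 cells received 100 nM of the Gemin5 siRNA with Lipofectamine 2000. Ctrl samples are labelled as untreated, but the treatment protocol and the methods also name a control siRNA, so an effect of transfection cannot be told apart here from that of silencing. The siRNA acts transiently and left part of the GEMIN5 mRNA, and no heat treatment of the cells is described.

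Cells hold their proteins in a folded state with chaperones, which bind exposed hydrophobic stretches and release them in cycles of ATP binding and hydrolysis. HSP70 proteins take up unfolded chains from J-domain proteins such as DNAJB1, the HSP110 proteins HSPA4 and HSPH1 exchange their nucleotide, and HSP90 proteins receive later folding intermediates such as kinases and steroid receptors. In unstressed cells HSF1 is held inactive by chaperones, and when these are occupied by unfolded protein it trimerizes and binds heat shock elements, inverted repeats of the letters GAA in the promoters of its targets. HSPA1A, HSPA1B, HSP90AA1, DNAJB1, HSPH1 and HSPB1 are known as heat-inducible genes, and HSPA8 and HSP90AB1 as their constitutive counterparts.

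The promoters of these genes are shown because the elements mark which of them carry the letters that HSF1 binds. RefSeq promoters of GRCh38.p14 (250 bases before the transcript start to 50 after it) were searched for pairs of units, GAANNTTC or TTCNNGAA, and for 3 units in a row, GAANNTTCNNGAA or TTCNNGAANNTTC. The pairs read the same on both strands, the second form of 3 units is the first one read on the other strand, and each match to 3 units also contains 2 overlapping pairs. Of 34943 promoters, 0.489% held 3 units and 13.5% held a pair. The start nearest to that of the canonical transcript was taken for each gene, and the unit letters are in capitals. The windows are chr6:31815422-31815459 (HSPA1A, plus strand), chr6:31827618-31827655 (HSPA1B, plus), chr11:123062339-123062381 and chr11:123062164-123062206 (HSPA8, minus), chr14:102087090-102087147 (HSP90AA1, minus), chr19:14518422-14518489 (DNAJB1, minus) and chr7:76302476-76302513 (HSPB1, plus).
HSPA1A: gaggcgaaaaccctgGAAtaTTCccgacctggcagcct
HSPA1B: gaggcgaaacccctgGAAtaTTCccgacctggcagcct
HSPA8, upstream: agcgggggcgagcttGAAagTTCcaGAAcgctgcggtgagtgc
HSPA8, downstream: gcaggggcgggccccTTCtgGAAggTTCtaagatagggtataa
HSP90AA1: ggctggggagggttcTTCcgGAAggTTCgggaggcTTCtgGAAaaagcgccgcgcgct
DNAJB1: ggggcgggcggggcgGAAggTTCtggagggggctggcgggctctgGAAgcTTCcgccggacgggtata
HSPB1: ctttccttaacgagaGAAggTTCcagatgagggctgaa

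HSPA8 held 3 units at 2 places, beginning 230 and 55 bases before the start, and HSP90AA1 at 1 place, beginning 88 bases before the start. HSPA1A, HSPA1B and HSPB1 held 1 pair each, and DNAJB1 2 pairs. The windows of HSPA1A and HSPA1B are nearly the same, and their whole promoters shared 92% of aligned positions. No match lay in the promoter of HSPA4, nor at the canonical start of HSP90AB1, where 1 of the 3 listed starts held 3 units. The start listed for HSPH1 lies 484 bases from that of its canonical transcript, so the window searched, which held no match, does not cover the canonical promoter. A match is a description of the letters in these windows and not evidence of binding, and no promoter of HSF1 was in the table used here.

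The libraries held between 11145324 and 24511299 reads assigned to genes, and the share of reads aligned to several places was 4.88 to 6.04% in Input and 21.2 to 42.4% in Polysome. GEMIN5 mRNA, the target of the siRNA, fell by 1.40 on the log2 scale in Input and by 1.44 in Polysome (adjusted p = 3.105e-10 and 0.004768, edgeR's quasi-likelihood test with Benjamini-Hochberg adjustment). On the third principal component of all genes, the Polysome libraries Ctrl 1, siRNAG5 1 and siRNAG5 4 lay apart from the others (35.29 to 38.47, against -26.26 to 2.16 in the other Polysome libraries). Values without them are given where they change a call among the 10 genes. Of the cell type markers, those of HEK293 cells (7 of 7 with reads in every group) summed to 1070 to 1555 CPM in Input and 443 to 661 CPM in Polysome. Hepatocyte mRNAs (15 genes) moved with the condition: they summed to 1.12 to 150.9 CPM in Input Ctrl, 1.07 to 1.26 in Input siRNAG5, 80.8 to 167 in Polysome Ctrl and 0.371 to 0.876 in Polysome siRNAG5. In both siRNAG5 groups 8 of these 15 genes were at 0, APOB and SERPINA1 among them, and ALB had at most 0.0825 CPM. In Input Ctrl they were near 0 in Ctrl 1 and Ctrl 2 (2.69 and 1.12 CPM) and high in Ctrl 3 and Ctrl 4. Their part in the results was not tested.

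Levels are given as CPM, read counts scaled to a common library size (TMM), and between genes only per kilobase of merged exons. In Input Ctrl, HSP90AB1 and HSPB1 stood highest (317 ± 27.4 and 311 ± 12.2 CPM per kilobase, SD, n = 4), followed by HSPA8 (276 ± 32.2) and HSP90AA1 (196 ± 15.4). The ranges of HSP90AB1, HSPB1 and HSPA8 overlapped, whereas every HSP90AA1 library lay below those 3 genes. HSPA1B (41.3 ± 4.69), HSPA4 (40.7 ± 1.87), HSF1 (18.4 ± 1.54), DNAJB1 (12.1 ± 1.14) and HSPH1 (9.98 ± 0.647) followed, of which HSPA1B and HSPA4 overlapped, and HSPA1A was last at 0.262 ± 0.120. The levels and places of HSPA1A and HSPA1B are uncertain, because most of their sequence is shared and reads there may not have been counted. Merged exons include long retained-intron forms, and over the length of the canonical transcript HSPB1 and HSPA8 came first (650.0 ± 25.4 and 591 ± 69.0) and HSF1 and DNAJB1 (45.6 ± 3.83 and 44.1 ± 4.16) stood above HSPA4 and HSPA1B, though within their spread. Summed over the 10 genes, the level was 4376 ± 317 CPM in Input Ctrl, 3665 ± 145 in Input siRNAG5, 2403 ± 443 in Polysome Ctrl and 1813 ± 158 in Polysome siRNAG5. In Input the 2 conditions did not overlap in this sum (3932 to 4678 against 3492 to 3831 CPM), and in Polysome they did (1793 to 2840 against 1678 to 2034).

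**Figure D1:**
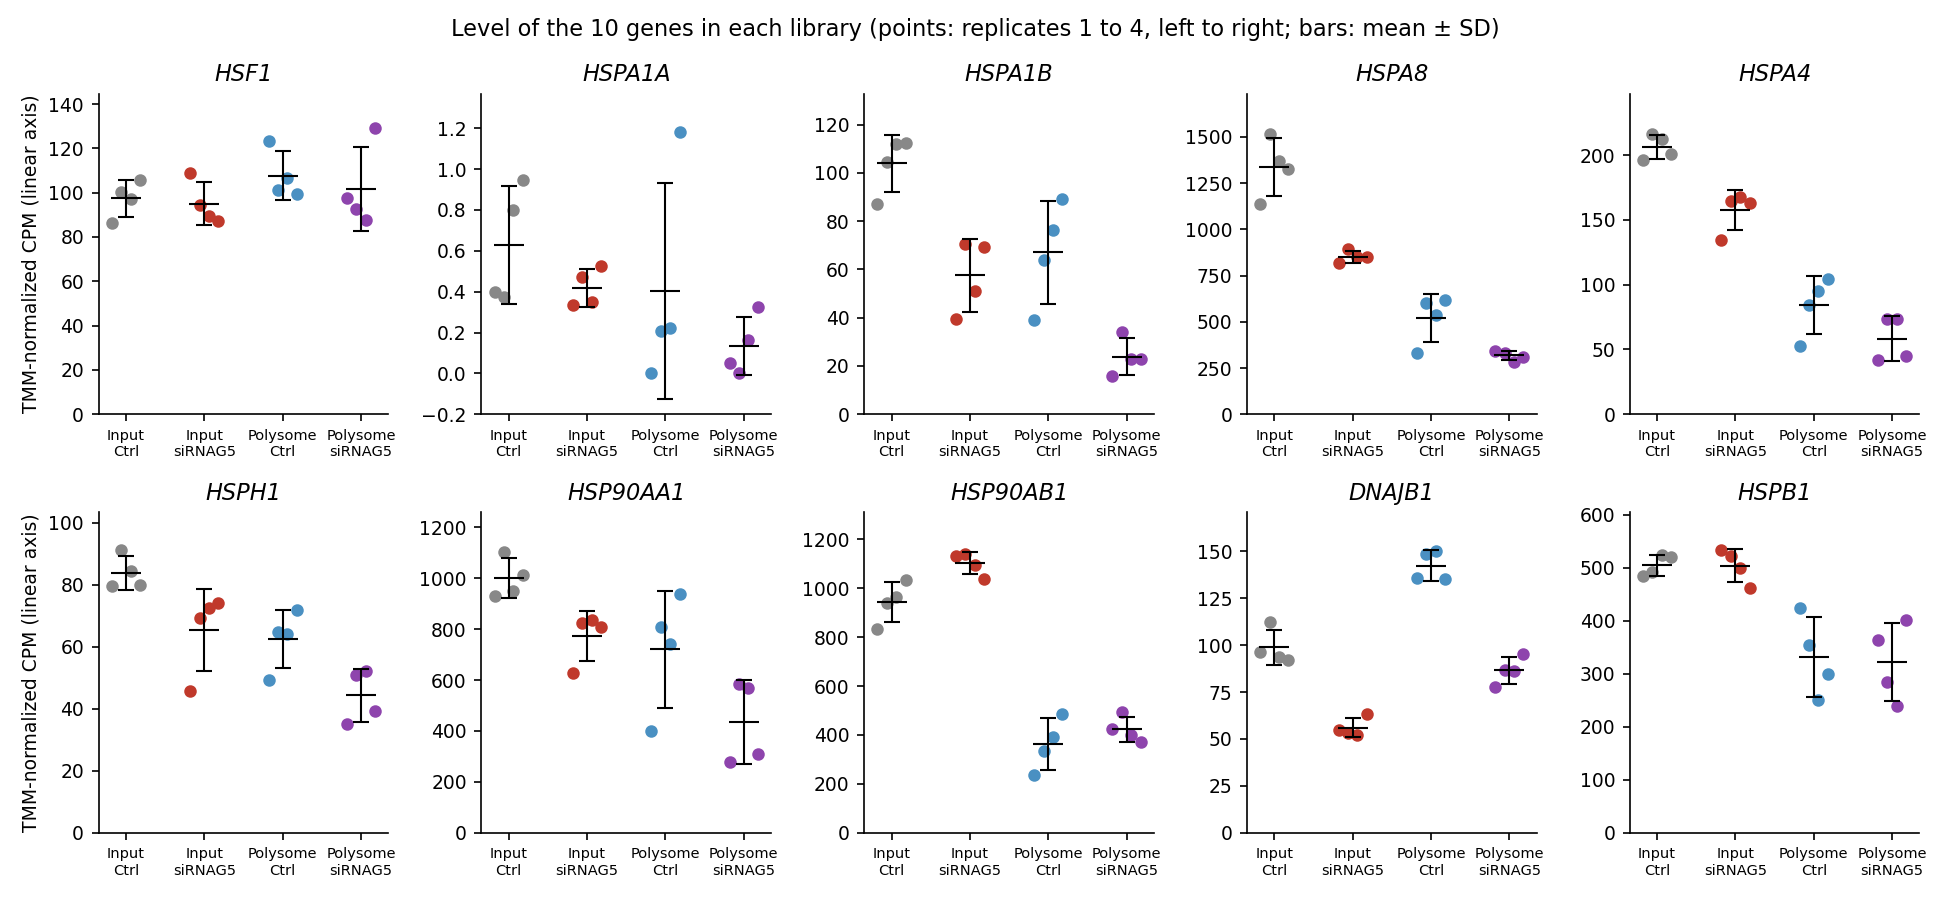
Level of each gene (TMM-normalized CPM, linear axes that differ between panels) in the 16 libraries, with points for replicates 1 to 4 of each group and bars for the mean ± SD. HSPA1B, HSPA8 and DNAJB1 are lower in every Input siRNAG5 library than in every Input Ctrl library, HSP90AB1 is higher, and HSF1 and HSPB1 overlap.

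HSPA1A and HSPA1B, adjacent single-exon genes that encode the same stress-inducible HSP70, share most of their sequence. Over the length of a read (100 bases), 1666 of the 2301 windows of the HSPA1A transcript (72.4%) occur letter for letter in HSPA1B, and 635 windows occur nowhere else in the genome. HSPA1B has 752 windows of its own among 2418. Nevertheless HSPA1A was counted with only 4 to 10 reads per Input library and 0 to 15 per Polysome library, where HSPA1B had 590 to 1398 and 306 to 1366 reads. HSPA1A was too low to be tested, and since reads of both genes may have been set aside or assigned to one of them, HSPA1B is given as an uncertain split of the pair. The sum of the 2 genes gave values within 0.01 of those of HSPA1B alone on the log2 scale in both siRNAG5 comparisons. Of the other genes, HSPB1 (6.05%), HSPA8 (3.74%), HSP90AA1 (3.07%) and HSP90AB1 (1.71%) had windows that recur elsewhere, and HSF1, HSPA4, HSPH1 and DNAJB1 had none. Reads counted on the 32 pseudogene copies came to at most 0.877% of those on the parent gene in any library.

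HSF1 (chr8:144291591-144314720), the transcription factor of the heat shock response, did not pass the test between conditions in either fraction. It was at 86.3, 100.3, 97.3 and 105.6 CPM in Input Ctrl and at 108.8, 94.4, 89.5 and 87.0 CPM in Input siRNAG5. The groups overlapped throughout, with a log2 fold change (FC) of -0.03 (95% interval -0.18 to 0.13, adjusted p = 0.8204, edgeR). In Polysome the values were 123.5, 101.2, 106.7 and 99.4 CPM in Ctrl and 97.5, 92.4, 87.6 and 129.3 CPM in siRNAG5. There too the groups overlapped (log2 FC -0.04, interval -0.39 to 0.30, adjusted p = 0.8838, edgeR), and the sign of so small a value turned with the scaling: with library totals alone it was 0.08 in Input and 0.29 in Polysome. The activity of HSF1 is known to be set by trimerization and phosphorylation, which were not measured here.

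Of the HSP70 genes, HSPA1B was called lower in both fractions of siRNAG5 cells and HSPA8 in Input, and HSPA1A was not tested. HSPA1B (chr6:31827738-31830254) was at 87.0, 104.6, 111.8 and 112.4 CPM in Input Ctrl and at 39.3, 70.5, 50.8 and 69.4 CPM in Input siRNAG5. In Polysome it was at 38.9, 63.9, 76.2 and 89.1 CPM in Ctrl and at 15.7, 34.1, 22.8 and 22.8 CPM in siRNAG5. No siRNAG5 library reached the lowest Ctrl library of its fraction, and the gap in Polysome was narrow, between siRNAG5 2 and Ctrl 1. HSPA1B fell by 0.84 on the log2 scale in Input (SE 0.12, adjusted p = 1.456e-06, edgeR) and by 1.44 in Polysome (SE 0.26, adjusted p = 0.01256, edgeR). In bulk RNA, less RNA per cell and fewer cells that express the gene cannot be told apart. Without Polysome Ctrl 2 the adjusted p in Polysome was 0.0552, and without the 3 libraries that lay apart the gene fell by 1.36 (adjusted p = 0.00115, edgeR).

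HSPA8 (chr11:123057489-123063230), the constitutive HSP70 that also uncoats clathrin vesicles, was at 1136, 1516, 1368 and 1329 CPM in Input Ctrl and at 815, 895, 852 and 850 CPM in Input siRNAG5. The siRNAG5 libraries lay close together and all below the Ctrl libraries, and HSPA8 fell by 0.64 on the log2 scale (SE 0.07, adjusted p = 3.325e-08, edgeR). In Polysome, Ctrl libraries held 334, 600, 539 and 618 CPM and siRNAG5 libraries 345, 332, 284 and 312 CPM. Ctrl 1, one of the libraries that lay apart, was the only Ctrl library among the siRNAG5 values. The log2 FC there was -0.67 (SE 0.19) with an adjusted p of 0.05429 in edgeR's test, which missed the threshold, and the call depended on the setting. Without the 3 libraries that lay apart the log2 FC was -0.87 (adjusted p = 0.007282, edgeR), without Ctrl 1 alone the adjusted p was 0.0207, and DESeq2 gave 0.00647.

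The HSP110 genes, which release nucleotide from HSP70, were lower in Input by less than the log2 limit of 0.5 used for a call. HSPA4 (chr5:133052013-133106449) was at 195.9, 216, 212 and 201 CPM in Input Ctrl and at 135, 165, 168 and 163 CPM in Input siRNAG5. HSPH1 (chr13:31134973-31162388) was at 79.6, 91.2, 84.3 and 79.9 CPM in Input Ctrl and at 45.8, 69.3, 72.5 and 74.0 CPM in Input siRNAG5. Neither gene overlapped between the groups, and for both the lowest value was that of siRNAG5 1. The log2 FC was -0.38 for HSPA4 (SE 0.07, adjusted p = 8.936e-05, edgeR) and -0.34 for HSPH1 (SE 0.10, adjusted p = 0.007365, edgeR). The value of HSPH1 depended on the setting: it was -0.21 without Input siRNAG5 1 and -0.11 with the share of reads at several places as a covariate (adjusted p = 0.354), and the adjusted p was 0.0804 in DESeq2 and 0.0727 with library totals. In Polysome HSPA4 was at 52.6, 84.3, 95.3 and 104.3 CPM in Ctrl and at 42.2, 73.2, 73.5 and 44.8 CPM in siRNAG5, and HSPH1 at 49.3, 64.8, 64.2 and 71.7 CPM and at 35.2, 50.8, 52.2 and 39.1 CPM. Both overlapped, and in both the libraries Ctrl 1, siRNAG5 1 and siRNAG5 4 were the lowest of their group. Neither passed the test in Polysome (log2 FC -0.48, adjusted p = 0.2192 for HSPA4 and -0.45, adjusted p = 0.108 for HSPH1, edgeR).

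The HSP90 genes moved apart from each other. HSP90AA1 (chr14:102080742-102139699), the inducible form, was at 930.1, 1104, 948 and 1014 CPM in Input Ctrl and at 627, 823, 838 and 808 CPM in Input siRNAG5. HSP90AB1 (chr6:44246166-44253888), the constitutive form, was at 835, 940.3, 966 and 1032 CPM in Input Ctrl and at 1132, 1139, 1097 and 1040 CPM in Input siRNAG5. HSP90AA1 was thus lower in every siRNAG5 library (log2 FC -0.36, SE 0.08, adjusted p = 0.0004276, edgeR) and HSP90AB1 higher in every one (log2 FC 0.24, SE 0.06, adjusted p = 0.004225, edgeR), both inside the limit of 0.5. HSP90AB1 was the only one of the 10 genes that passed the test upwards.

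In Polysome HSP90AA1 was at 398, 808, 743 and 936 CPM in Ctrl and at 277, 585, 568 and 308 CPM in siRNAG5, and HSP90AB1 at 236, 336, 393 and 486 CPM in Ctrl and at 424, 495, 399 and 373 CPM in siRNAG5. Both genes overlapped between the groups, and HSP90AA1 was low in Ctrl 1, siRNAG5 1 and siRNAG5 4. The log2 FC was -0.68 for HSP90AA1 (SE 0.30, adjusted p = 0.1703, edgeR) and 0.27 for HSP90AB1 (SE 0.21, adjusted p = 0.4241, edgeR). Without the 3 libraries that lay apart, HSP90AA1 gave -0.47 (adjusted p = 0.09555, edgeR).

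Within a library, the ratio of HSP90AA1 to HSP90AB1 does not depend on the scaling. Its log2 was 0.15, 0.23, -0.03 and -0.03 in Input Ctrl and -0.85, -0.47, -0.39 and -0.36 in Input siRNAG5, and in Polysome 0.75, 1.26, 0.92 and 0.94 in Ctrl and -0.61, 0.24, 0.51 and -0.27 in siRNAG5. Every siRNAG5 library lay below every Ctrl library of its fraction, by a mean of 0.60 in Input and 1.00 in Polysome. The lowest Polysome ratios of each condition were those of Ctrl 1, siRNAG5 1 and siRNAG5 4, the libraries that lay apart. The Polysome mean thus rests in part on them. The ratio of HSPA1A plus HSPA1B to HSPA8 overlapped between conditions in Input (mean log2 of -3.68 in Ctrl and -3.92 in siRNAG5) and did not in Polysome (-2.98 and -3.78). These pairs were set side by side after their values had been seen, so the differences are given as descriptions, without a p.

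**Figure D2:**
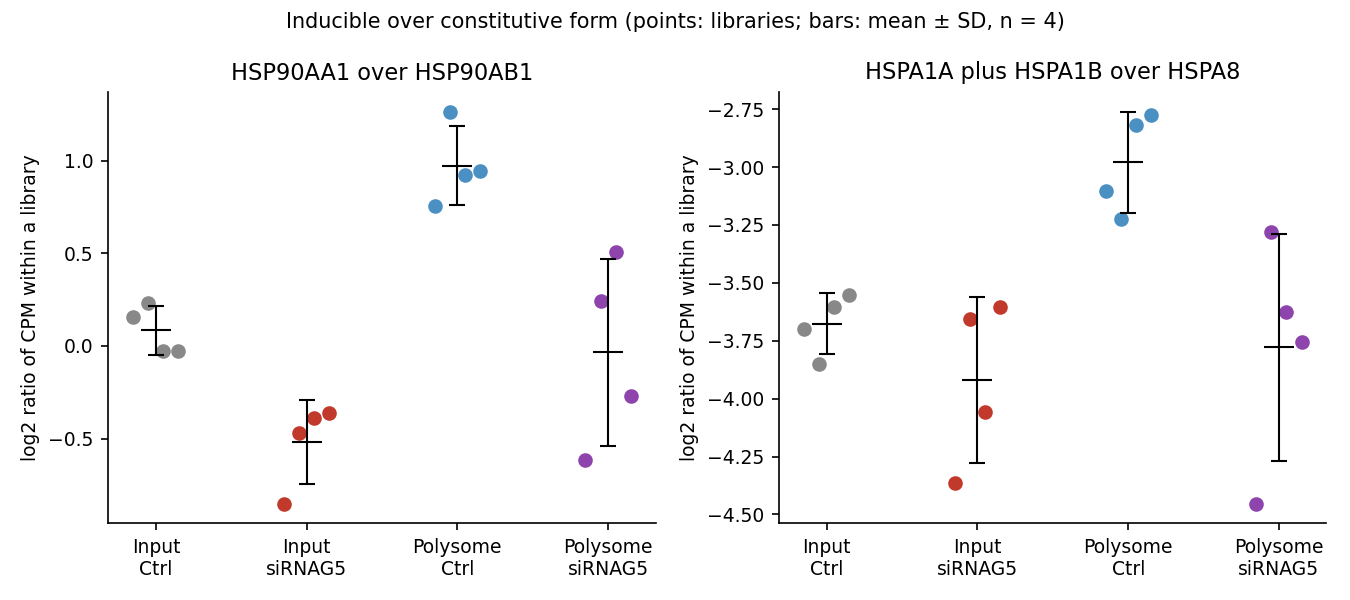
Log2 ratio of the CPM of the inducible over the constitutive gene in each library, for HSP90 (left) and HSP70 (right), with points for libraries and bars for the mean ± SD (n = 4). In Input the HSP90 ratio separates the conditions and the HSP70 ratio does not, and in Polysome both do.

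DNAJB1 (chr19:14514769-14560391), the J-domain protein that delivers clients to HSP70 and with it holds HSF1 inactive, was lower in both fractions of siRNAG5 cells. It was at 96.6, 112.6, 93.9 and 92.3 CPM in Input Ctrl and at 54.9, 53.3, 52.3 and 63.5 CPM in Input siRNAG5. In Polysome it was at 135.6, 148, 150.3 and 135.3 CPM in Ctrl and at 77.9, 86.6, 86.4 and 95.1 CPM in siRNAG5. The conditions did not overlap in either fraction. DNAJB1 fell by 0.81 on the log2 scale in Input (SE 0.08, adjusted p = 4.55e-09, edgeR) and by 0.68 in Polysome (SE 0.13, adjusted p = 0.01302, edgeR), and without Polysome Ctrl 2 the latter had an adjusted p of 0.0536. Without the 3 libraries that lay apart it was 0.007633. With library totals alone the Polysome log2 FC of DNAJB1 was -0.33 (adjusted p = 0.102, edgeR), and the call was lost.

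HSPB1 (chr7:76302673-76304295), the small heat shock protein that holds unfolded chains without ATP, was at 484, 493, 524 and 519.5 CPM in Input Ctrl and at 534, 521, 499 and 462 CPM in Input siRNAG5. In Polysome it ranged from 250.3 to 425 CPM in Ctrl and from 240.1 to 401 CPM in siRNAG5. The conditions overlapped in both fractions, with a log2 FC of 0.01 in Input (95% interval -0.12 to 0.14, adjusted p = 0.916, edgeR) and -0.01 in Polysome (interval -0.48 to 0.46, adjusted p = 0.9901, edgeR). With library totals alone the Polysome value was 0.34.

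Of the 9 genes tested, 3 were called lower in Input (adjusted p under 0.05 and log2 FC beyond 0.5), where 6.02% of the 14134 genes tested were called lower, and 0 were called higher, against 10.5%. At an adjusted p under 0.05 alone, 6 were lower and 1 higher, against 19.1% and 17.9% of all genes. The genes inside the limit of 0.5 lost this call in one fit of all 16 libraries (edgeR's adjusted p = 0.175 for HSPA4, 0.13 for HSPH1, 0.326 for HSP90AA1 and 0.391 for HSP90AB1), and with the several-places covariate HSP90AA1 was at -0.17 (adjusted p = 0.0589). The conditions were separate, siRNAG5 lower, for 6 genes, and separate with siRNAG5 higher for 1, against 19.1% and 15.1% of all genes. The median log2 FC of the 9 genes was -0.36, where that of all genes was 0.04. With 0 called higher by edgeR, DESeq2 also called 0, and 1 passed upwards at an unadjusted p under 0.05 without the log2 limit. The share of all genes at an unadjusted p was not counted. Counts at that rule, here and below, are given without it and are descriptions only.

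In Polysome 2 of the 9 were called lower (HSPA1B and DNAJB1) and 0 higher, against 4% and 3.95% of the 14420 genes tested. At an adjusted p under 0.05 alone the numbers were 2 and 0, against 4.09% and 4.02%, and groups did not overlap for 2 genes downwards and 0 upwards, against 10% and 8.29%. The median was -0.48, that of all genes 0.03. DESeq2 called 3 lower and 0 higher, and at an unadjusted p under 0.05 without the log2 limit there were 5 lower and 0 higher. The biological coefficient of variation was 0.216 in Polysome and 0.0806 in Input, so intervals in Polysome were wider and its shorter list of calls does not show a smaller effect. With the share of reads aligned to several places as a covariate, none of the 9 was called in Polysome (adjusted p = 0.0532 for HSPA1B and 0.0621 for DNAJB1, edgeR), and with 1 surrogate variable 6 were. The calls over all 14420 genes moved as well. From 577 lower, they became 87 with that covariate, 1394 with 1 surrogate variable and 1101 in DESeq2.

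Whether silencing acted on the Polysome level beyond the Input level was asked by the difference between the log2 FC in Polysome and that in Input, in one fit of all libraries. None of the 9 genes was called in either direction by edgeR or DESeq2, and 0 had an unadjusted p under 0.05. Over all 14958 genes edgeR called 0% lower and 0% higher, and DESeq2 called 11 and 18 genes. HSPA1B had the lowest value, -0.63 (95% interval -1.33 to 0.06, adjusted p = 0.7203, edgeR). DNAJB1 had the highest, 0.10 (interval -0.20 to 0.40, adjusted p = 0.9212, edgeR), and HSPA8 was at -0.07 (interval -0.53 to 0.40, adjusted p = 0.9704, edgeR). The intervals leave room for differences of about the size called elsewhere, so an equal change in both fractions is not shown. Without the 3 libraries that lay apart, 659 genes of 15343 were called lower and 106 higher, and 0 of the 9, with HSPA1B at -0.55 (adjusted p = 0.2076, edgeR).

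**Figure D3:**
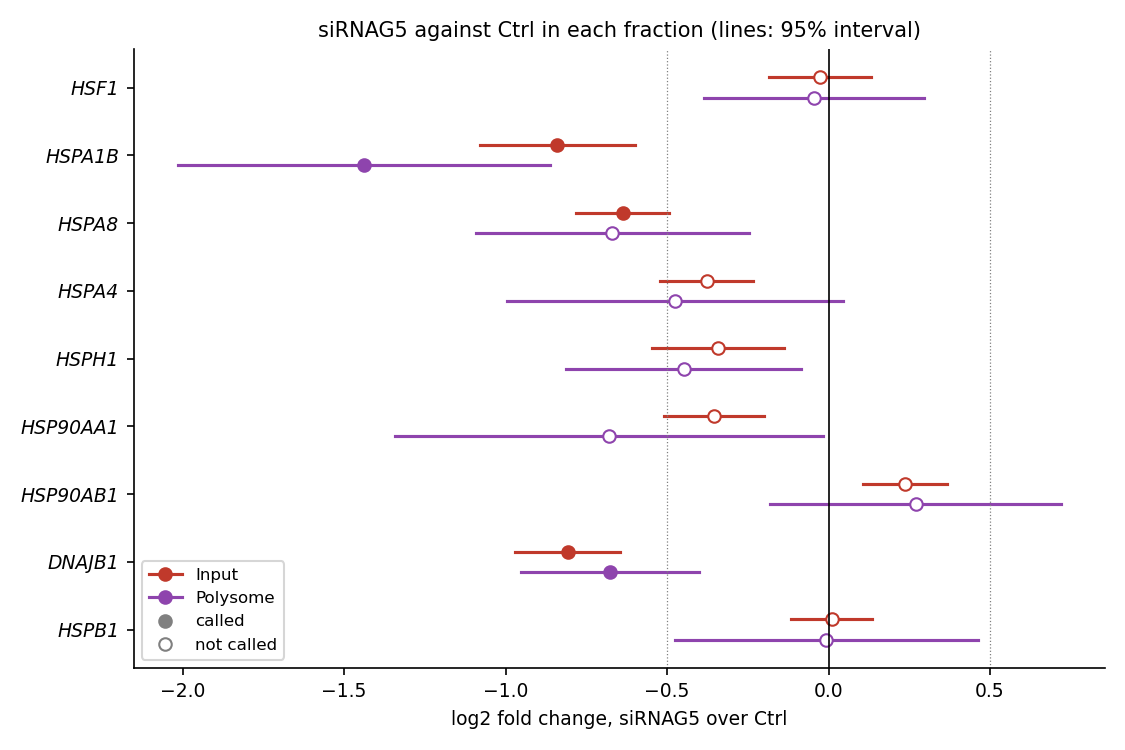
Log2 FC of siRNAG5 over Ctrl for the 9 genes tested, in Input and Polysome, with lines for the 95% interval, filled points for called genes and dotted lines at the limit of 0.5. HSPA1B and DNAJB1 are called in both fractions, HSPA8 in Input, and HSP90AB1 lies to the right of 0.

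The level of these mRNAs in Polysome was compared next with that in Input, within each condition, on the same libraries as above. These are ratios of scaled levels and do not give the part of each mRNA that is on polysomes. In Ctrl cells 5 of the 9 were called lower in Polysome than in Input relative to other mRNAs. HSP90AB1, HSPA8 and HSPA4 stood lowest, with a log2 FC of -1.37 for HSP90AB1 (SE 0.18, adjusted p = 1.961e-05, edgeR), -1.35 for HSPA8 (SE 0.18, adjusted p = 2.226e-05) and -1.28 for HSPA4 (SE 0.17, adjusted p = 1.434e-05). HSPA1B (-0.62, adjusted p = 0.01169, edgeR) and HSPB1 (-0.59, adjusted p = 0.00548) were called lower as well, though the libraries of HSPA1B overlapped. Without Polysome Ctrl 1 HSPA1B was at -0.44 and without Polysome Ctrl 3 HSPB1 was at -0.46, both inside the limit of 0.5. HSP90AA1 (-0.46, adjusted p = 0.07077, edgeR) and HSPH1 (-0.41, adjusted p = 0.01199) were not called, nor was HSF1 (0.16, adjusted p = 0.2945). HSPH1 lay inside the limit of 0.5, though every Polysome library was below every Input library. DNAJB1 was called higher, and its Polysome level was 142 ± 8.07 CPM where Input held 98.8 ± 9.32 CPM, without overlap (log2 FC 0.54, SE 0.11, adjusted p = 0.001034, edgeR). These 5 genes called lower and 1 higher stand against 18.8% and 20.8% of the 13666 genes tested, and the median was -0.59 (all genes -0.03).

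In siRNAG5 cells HSPA8 (-1.34), HSPA4 (-1.34) and HSP90AB1 (-1.30) were again lowest, HSPA1B was at -1.18 (SE 0.24, adjusted p = 0.001469, edgeR) and HSPB1 at -0.57 (SE 0.15, adjusted p = 0.008006). HSP90AA1 was called lower here (-0.74, SE 0.24, adjusted p = 0.02258, edgeR), but without the Polysome libraries siRNAG5 1 and siRNAG5 4 its value was -0.25. Its call was also lost without any one of the libraries Input siRNAG5 2, 3 and 4 and Polysome siRNAG5 4, and that of HSPB1 without Polysome siRNAG5 3 (-0.45). HSPH1 overlapped and lay inside the limit (-0.48, adjusted p = 0.04228, edgeR), and HSF1 was at 0.18 (adjusted p = 0.27). DNAJB1 was higher in Polysome, at 86.5 ± 7.03 CPM against 56.0 ± 5.09 CPM in Input, again without overlap (log2 FC 0.71, SE 0.11, adjusted p = 0.000228, edgeR). This made 6 called lower and 1 higher, against 21.2% and 23.9% of the 14795 genes tested, with a median of -0.74 (all genes -0.04).

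The direction of several of these values rests on the scaling. With library totals alone in place of TMM the median of all genes shifted by 0.54 in Ctrl and 0.74 in siRNAG5 (and by 0.11 and 0.35 in the comparisons of siRNAG5 with Ctrl in Input and Polysome). HSP90AB1, HSPA8 and HSPA4 were then called lower and DNAJB1 and HSF1 higher in both conditions. HSP90AA1 and HSPH1 then turned to 0.08 and 0.13 in Ctrl and 0.03 and 0.28 in siRNAG5. HSPB1 turned to 0.15 in siRNAG5. The share of reads aligned to several places separates the fractions, so its part cannot be told apart from that of the fraction.

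**Figure D4:**
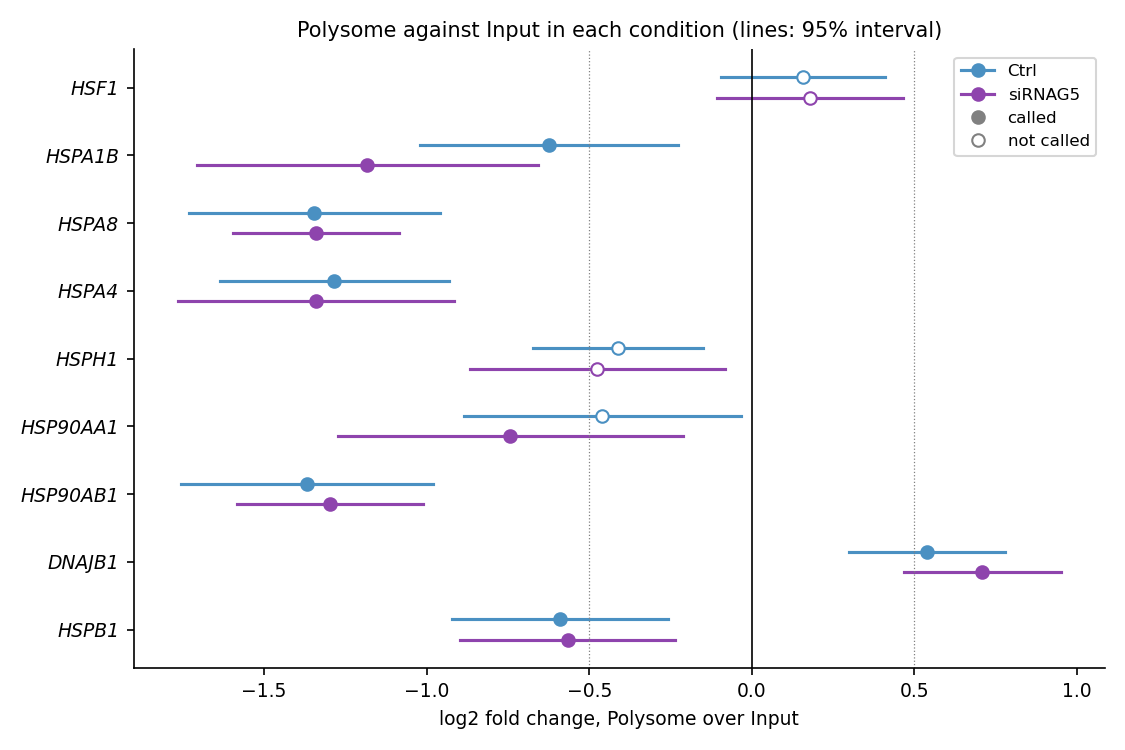
Log2 FC of Polysome over Input for the 9 genes tested, in Ctrl and siRNAG5, with lines for the 95% interval and filled points for called genes. HSPA8, HSPA4 and HSP90AB1 lie near -1.3 in both conditions, and DNAJB1 lies above 0.

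The partners of these chaperones, taken from lists of HSP70 and HSP90 cofactors and related genes, numbered 73 genes without the 10. In Input 61 were tested, of which 11 were called lower and 1 higher, and in Polysome 60, of which 8 were lower and 3 higher, beside the same shares of all genes as above (6.02% and 10.5%, 4% and 3.95%). All 15 HSP90 partners were tested and lay below 0 in Input, with a median of -0.32, and 4 of them were called. These were AHSA1, which activates the ATPase of HSP90 (588 ± 40.2 CPM in Ctrl and 355 ± 28.8 in siRNAG5, log2 FC -0.72), STIP1, which hands clients from HSP70 to HSP90 (404 ± 21.1 and 248 ± 5.21 CPM, -0.69), CHORDC1 (-0.68) and NUDC (-0.52). In Polysome 3 were called, NUDC (-0.91), AHSA1 (-0.69) and CDC37, the adaptor for kinase clients (-0.57), with a median of -0.31.

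Of the factors that exchange nucleotide or release clients of HSP70 (11 genes), 3 were called lower in Input, the ubiquitin ligase STUB1 (-0.58), HSPBP1 (-0.56) and BAG2 (-0.51), with a median of -0.33. In Polysome 4 were lower, HSPBP1 (-0.85), STUB1 (-0.78), BAG1 (-0.76) and BAG2 (-0.52), and BAG4 was higher (0.52), with a median of -0.41. Of 9 J-domain partners tested, DNAJA1 was called lower in Input (367 ± 33.1 and 228 ± 22.7 CPM, -0.67) and 0 in Polysome by edgeR. There 2 passed downwards at an unadjusted p and DESeq2 called 1, and DNAJA1 was low in Ctrl 1, siRNAG5 1 and siRNAG5 4 (88.7, 100.0 and 89.6 CPM, against 172 to 267 CPM in the others). With those 3 libraries left out, 1 J-domain partner was called lower in Polysome. Other genes known to be induced through HSF1 (22 genes, 19 tested) included 6 called lower and 1 higher in Input, with a median of -0.32. Of those named by the largest change, HSPE1, the mitochondrial HSP10, had -0.77, and AHSA1, STIP1 and CHORDC1 stand in the HSP90 list too. In Polysome 1 was lower (AHSA1) and 1 higher (HSPB8), with a median of -0.36. Without the 3 libraries that lay apart 6 were lower and 1 higher, and DESeq2 called 4 and 1. Over all genes, 1788 of 14717 were called lower and 1327 higher without those libraries. DESeq2 called 1101 lower and 840 higher of 14420.

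Of 15 other HSP70 and small heat shock genes, 4 were expressed enough to be tested, of which 1 was called higher in Input and 2 in Polysome. Leaving out the 3 libraries that lay apart, 3 were called higher in Polysome. HSPA2 (0.01 and 0.41, adjusted p = 0.9791 and 0.4869, edgeR) and HSPA12A (0.34 and 0.44, adjusted p = 0.09532 and 0.1374) did not pass the test in either fraction. HSPB8, a small heat shock protein that works with BAG3 in autophagy, rose from 4.21 ± 1.45 to 11.9 ± 2.54 CPM in Input (log2 FC 1.53, SE 0.19, adjusted p = 2.122e-07, edgeR) and from 7.38 ± 1.32 to 15.5 ± 4.19 CPM in Polysome (1.11, adjusted p = 0.01345). Its libraries did not overlap between conditions in either fraction. HSPA13, an HSP70 of the endoplasmic reticulum, rose in Polysome (7.98 ± 2.35 to 16.4 ± 4.88 CPM, 1.08, adjusted p = 0.02798, edgeR), where the groups overlapped at Ctrl 3 and siRNAG5 4. In Input HSPA13 was higher too, inside the log2 limit (0.36, adjusted p = 0.02092, edgeR). Its difference between the fractions did not pass the test (0.68, adjusted p = 0.6156, edgeR). HSPA6, a strictly inducible gene in many cells, and CRYAB were below the filter. Among the HSF family and its regulators 0 of 5 were called in Input and 0 of 4 in Polysome by edgeR, and 0 in both by DESeq2. At an unadjusted p under 0.05, 1 was lower in Input and 1 higher in Polysome, and without the 3 libraries that lay apart 1 was called lower and 1 higher in Polysome. HSF2 was at 0.18 and 0.52 (adjusted p = 0.1355 and 0.1546), and HSBP1, which binds HSF1 trimers, at -0.31 in Input (adjusted p = 0.0004406), inside the limit. Of the 10 chaperones of the endoplasmic reticulum and mitochondria, HSPE1 (-0.77) and GRPEL1, the exchange factor of the mitochondrial HSP70 (-0.57), were called lower in Input and GRPEL1 (-0.58) in Polysome, with medians of -0.16 and -0.25. With the 3 libraries that lay apart left out, 2 of these 10 were called lower in Polysome. Of the pseudogene copies, 0 of 5 tested were called in Input and 0 of 3 in Polysome by edgeR and by DESeq2, and at an unadjusted p under 0.05 there were 0 in Input and 1 higher in Polysome. The red blood cell, leukocyte, neuron and glia, and muscle markers each summed to at most 7.41 CPM in any library, and of them DES, a muscle intermediate filament gene, was called higher in siRNAG5 cells in Input (3.03) and Polysome (2.09).

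**Figure D5:**
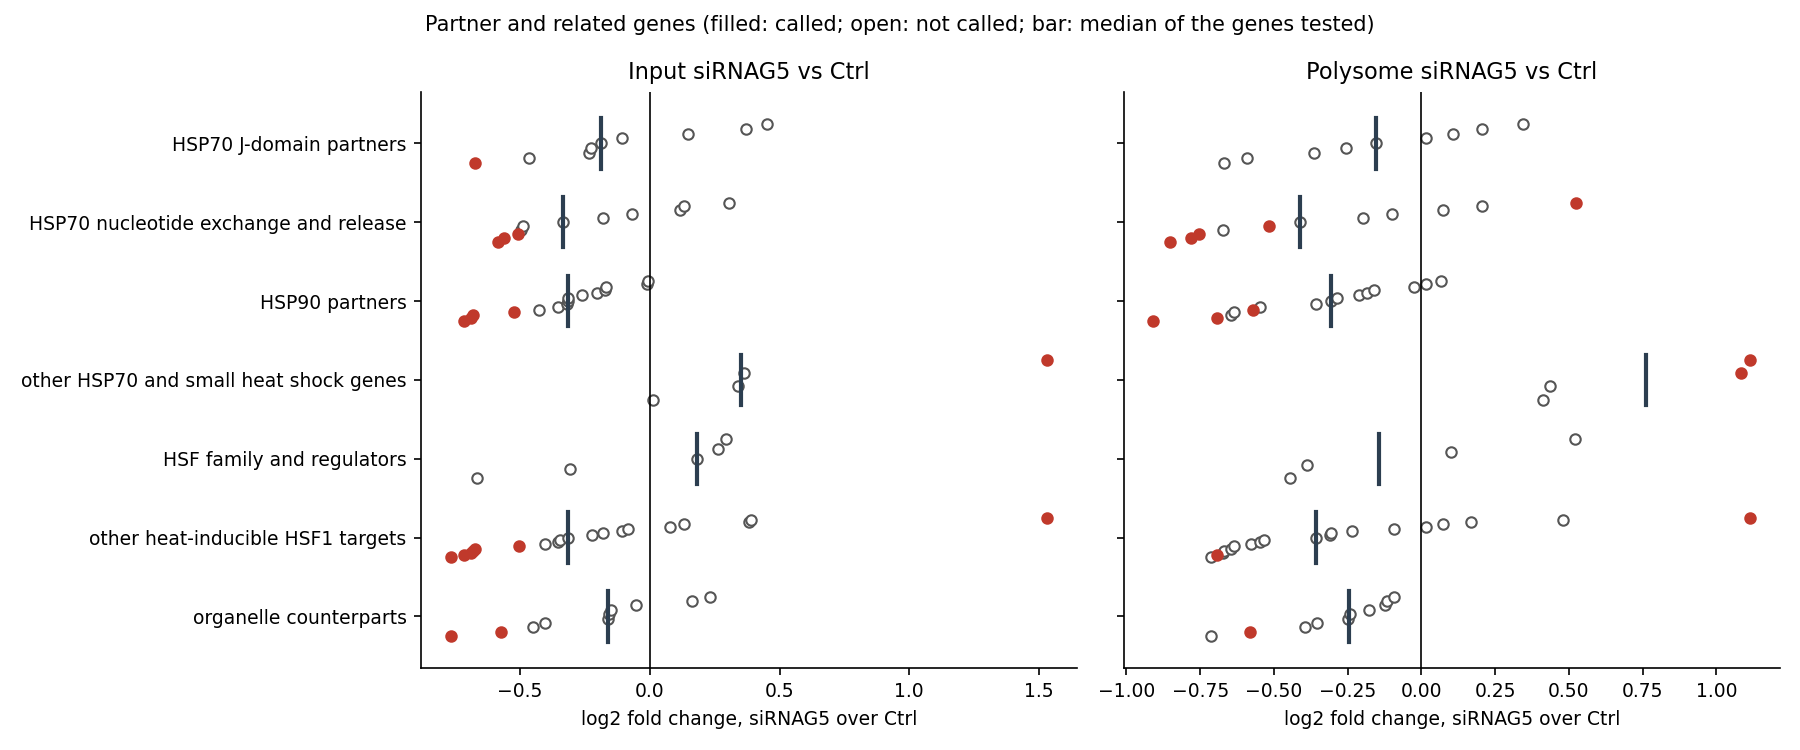
Log2 FC of siRNAG5 over Ctrl for the genes of 7 lists of partners and related genes in Input (left) and Polysome (right), with filled points for called genes and a bar for the median of the genes tested. The HSP90 partners lie left of 0 in Input, and HSPB8 stands to the right in both fractions.

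Over the 16 libraries, the genes whose log2 CPM followed that of a chaperone most closely were JMJD6 and TUBB2A for HSPA1B (Pearson's r of 0.96 and 0.95), FDPS and TUBA1C for HSPA8 (both 0.99), DDX24 and RBBP7 for HSPA4 (both 0.99), and PPWD1 and UTP15 for HSPH1 (both 0.95). For the HSP90 genes they were NCL and HNRNPM for HSP90AA1 (0.99 and 0.98) and EIF3D and ORC1 for HSP90AB1 (both 0.99). OTULIN and C8orf33 followed DNAJB1 (0.98 and 0.97), EXOSC7 and FXYD5 followed HSPB1 (0.99 and 0.98), and GRTP1 and MAPK8IP1 followed HSF1 less closely (0.86 and 0.85). Among the chaperones themselves, HSP90AA1 followed HSPH1 (0.95) and HSPA8 followed HSPA4 (0.95), while DNAJB1 ran against HSP90AB1 (-0.69). The libraries share their fraction, condition and sequencing composition, and these values are descriptions of the 14958 genes compared.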

How the data were processed

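RNA-Seq libraries were made by the authors from polyadenylated RNA with a stranded protocol and read as 100-base pairs. Alignment was to GRCh38 with STAR 2.5.3a and quantification with QoRTs. The deposited values are raw counts per Ensembl identifier. Rows that name no gene were left out of library sizes: reads at several places (4.88 to 42.4%), at no gene (0.667 to 1.33%) and at several genes (4.14 to 7.41%).

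Groups came from the sample labels. Each comparison was fitted by the quasi-likelihood test of edgeR 4.0.16 (R 4.3.3) after filterByExpr and TMM, with p adjusted over all genes that passed the filter by Benjamini-Hochberg, and the fraction difference in one fit of 16 libraries. Python 3.11.15 with scipy 1.17.1, numpy 2.4.6 and pandas 2.3.3 gave the per-library values, and matplotlib 3.10.9 the figures. The scripts were tested on simulated counts. Named genes were the 10 members, GEMIN5, up to 4 called genes per direction of each other list by the largest change, and the 2 genes that most resembled each member. Members and lists were chosen with earlier results of these data known. Alternatives were DESeq2 1.42.0, RLE factors, no filter, a replicate block, HSPA1A and HSPA1B summed, the several-places covariate, 1 surrogate variable (sva 3.50.0), one fit of all libraries, the unadjusted p, the canonical length and each library left out. Added after the data had been seen were library totals without TMM and leaving out the 3 Polysome libraries that lay apart. Coordinates and names are from GENCODE v44 (57532 identifiers matched). Within a fraction, p-values cover the spread between independent samples. The paper describes Input and Polysome RNA as taken from each lysate. The fits of Polysome over Input and of the fraction difference treated all libraries as independent and did not use this shared origin. Protein sequences were not used here.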

Additional observations from a re-analysis of the deposited data

Results flagged for a closer look

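For 3 of the 36 groups of 4 libraries tested with Dixon's ratio on log2 CPM, the lowest library lay far from the others, and all 3 were the library Input siRNAG5 1. The gap to the nearest library was 0.862 of the group's range for HSPA4 (135 CPM), 0.875 for HSP90AA1 (627 CPM) and 0.863 for HSPH1 (45.8 CPM). Chance flags about 1 in 20 such groups, and the 3 values come from 1 library, so they are not independent. Without it the log2 FC in Input was -0.31 for HSPA4, -0.27 for HSP90AA1 and -0.21 for HSPH1.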

How the results depend on the processing

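In Input, HSPA1B, HSPA8 and DNAJB1 were called lower under each of the 18 alternatives run, each library left out included. Of these, the unadjusted p is a looser rule on the same fit and could not lose a call. Summing HSPA1A and HSPA1B added at most 15 reads per library. In Polysome the number called lower (2) became 1 with library totals, 0 with the share of reads at several places as a covariate, 6 with 1 surrogate variable, 4 with all libraries in one fit, 4 at an unadjusted p with the log2 limit kept, and 0 to 3 as libraries were left out in turn. Over all genes 577 were lower in the main fit, 207 with library totals, 87 with the covariate and 1394 with 1 surrogate variable. One fit of all libraries gave 1520, and leaving out libraries in turn 113 to 836. The number over all genes at an unadjusted p was not counted. For Polysome over Input, library totals gave 3 lower and 2 higher in both conditions, and the covariate gave 0 and 0 in Ctrl and 2 and 0 in siRNAG5. Over all genes, library totals gave 758 lower and 6246 higher in Ctrl and 797 and 8516 in siRNAG5. The covariate gave 2 and 0 in Ctrl and 650 and 903 in siRNAG5 over all genes. Library totals, and leaving out the 3 libraries that lay apart, were chosen after seeing the data. Small log2 values changed sign. With library totals these were HSF1 in Input (0.079) and Polysome (0.29), HSPB1 in Polysome (0.34), for the difference between fractions HSP90AB1 (0.27), HSPB1 (0.23), HSPA8 (0.20), HSPH1 (0.15), HSPA4 (0.16) and HSF1 (0.21), for Polysome over Input in Ctrl HSP90AA1 (0.084) and HSPH1 (0.13), and in siRNAG5 HSP90AA1 (0.032), HSPB1 (0.15) and HSPH1 (0.28). With the covariate they were HSPB1 in Input (-0.037) and, in siRNAG5, HSP90AA1 (0.54) and HSPH1 (0.26). With 1 surrogate variable they were HSF1 in Input (0.0087) and Polysome (0.0039), and HSPB1 in Polysome (0.10) and for the difference (0.064). In one fit of all libraries HSPB1 was at -0.0027 in Input. Without a filter HSPB1 was at 0.028 in Polysome and 0.0002 for the difference, and HSP90AB1 at 0.038 for the difference, where DESeq2 and RLE factors both gave 0.031. Without the 3 libraries HSPA4 was at 0.040 for the difference. With libraries left out in turn, HSF1 ranged from -0.098 to 0.010 in Input, from -0.17 to 0.039 in Polysome and from -0.18 to 0.050 for the difference, HSPB1 from -0.019 to 0.046, -0.13 to 0.15 and -0.16 to 0.12, and for the difference HSP90AB1 from -0.14 to 0.17 and HSPA8 from -0.21 to 0.022. The cause was not tested.

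Same-numbered libraries deviated together by r of -0.034 to 0.069 between the Input groups, -0.53 to 0.483 between the Polysome groups and -0.207 to 0.222 between fractions, so the numbers are not shown to pair the samples. With the replicate block the calls were 3 in Input and 2 in Polysome, as without it, 6 lower in place of 5 for Polysome over Input in Ctrl, and HSP90AB1 for the difference was at 0.010. Among the genes described here, only HSPA1A had too few reads to be tested, with at most 15 in a library. Whether this came from sequencing depth or from the handling of reads shared with HSPA1B was not tested.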
